A study of Mus musculus with 2 samples.

Results

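The type IIb myonuclei of mouse quadriceps were taken as nuclei whose adult myosin heavy chain UMIs came almost wholly from Myh4, the gene of the fastest and most glycolytic fibre myosin. A UMI (unique molecular identifier) is a tag that marks 1 captured RNA molecule. A barcode entered when it had at least 200 genes, at least 3 UMIs over Myh1, Myh2, Myh4 and Myh7, and at least 80% of them from Myh4. It was left out when it had more than 1 UMI over the immediate early receptors Nr4a1, Nr4a2 and Nr4a3, or any UMI of 9 genes of fibroblast, macrophage, adipocyte, endothelial or mural cells (Dcn, Pdgfra, Fbn1, Mrc1, F13a1, Pparg, Acvr1c, Flt1 and Notch3). These measured values chose the nuclei, so their myosin content is a description and not a finding. The rule found 5502 IIb nuclei among 18046 barcodes (30.5%), 2976 of 10280 in the WT library and 2526 of 7766 in the knockout library. They were part of 7487 myosin-defined nuclei, which met the same limits with any mix of the 4 myosins. The others were 621 IIx nuclei (Myh1 at least 80%), 338 IIa nuclei (Myh2), 998 hybrid nuclei below 80% for every isoform and 28 slow nuclei (Myh7).

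Both groups were C57BL/6N mice aged 3 months, 1 wild type (WT) and 1 PTRF knockout. PTRF is the older name of Cavin1, which encodes a coat protein of caveolae, small pits of the plasma membrane that are abundant in muscle fibres. Nuclei were isolated from whole quadriceps and their polyadenylated RNA was counted from the 3' end in droplets. Each genotype had 1 library. How many mice were pooled in each, their sex and the deleted part of the gene are not stated in the labels. No difference between genotypes therefore has a replicate check, and all intervals given are exact 95% intervals that cover counting error only.

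A muscle fibre holds many nuclei in 1 cytoplasm, and each adult fibre is typed by the myosin heavy chain that sets its shortening speed. IIb fibres contract fastest, store glycogen, draw their energy mainly from glycolysis and tire soon. IIx and IIa fibres are fast as well but hold more mitochondria and burn more fat, while slow fibres use Myh7. The fast myosin genes lie side by side in a cluster, and a long antisense RNA, Myhas, is read between Myh1 and Myh4 from the opposite strand.

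The gene that defined the nuclei, Myh4, lies at chr11:67238029-67260446 on the plus strand of GRCm38 and overlaps no other annotated gene. Myh1 (chr11:67200052-67224575) and Myh2 (chr11:67171027-67197517) precede it on the same strand. Myhas (chr11:67211256-67237573, minus strand) starts 456 bases from the start of Myh4 and covers 13320 bases of Myh1. Their promoters are shown because these start sites separate the fibre types. Each is RefSeq sequence of build GRCm38.p6, 250 bases before to 50 bases after the RefSeq start, which can differ from the start in the annotation above. Capitals mark an E-box (letters CANNTG, the site of MyoD family factors) or a MEF2 motif on either strand, and no E-box letters overlapped a MEF2 match in these windows. The windows are chr11:67237562-67237861 for Myh4, chr11:67237232-67237531 for Myhas, chr11:67199852-67200151 for Myh1 and chr11:67170777-67171076 for Myh2.
Myh4: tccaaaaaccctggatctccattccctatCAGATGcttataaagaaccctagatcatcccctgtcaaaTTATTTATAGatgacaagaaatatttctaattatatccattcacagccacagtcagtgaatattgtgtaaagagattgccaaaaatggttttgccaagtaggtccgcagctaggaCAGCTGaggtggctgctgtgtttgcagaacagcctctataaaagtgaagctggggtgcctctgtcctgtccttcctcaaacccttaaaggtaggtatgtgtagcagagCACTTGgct
Myhas: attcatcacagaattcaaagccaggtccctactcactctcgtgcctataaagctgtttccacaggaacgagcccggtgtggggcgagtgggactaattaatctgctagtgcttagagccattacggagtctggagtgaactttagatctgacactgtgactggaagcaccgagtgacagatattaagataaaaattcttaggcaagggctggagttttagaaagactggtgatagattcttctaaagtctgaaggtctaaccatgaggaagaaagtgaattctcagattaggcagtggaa
Myh1: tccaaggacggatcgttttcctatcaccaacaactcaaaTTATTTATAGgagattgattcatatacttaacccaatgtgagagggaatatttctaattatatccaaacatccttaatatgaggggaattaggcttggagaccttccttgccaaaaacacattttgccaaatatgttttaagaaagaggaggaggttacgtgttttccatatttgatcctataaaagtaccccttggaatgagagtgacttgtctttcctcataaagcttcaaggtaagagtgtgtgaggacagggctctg
Myh2: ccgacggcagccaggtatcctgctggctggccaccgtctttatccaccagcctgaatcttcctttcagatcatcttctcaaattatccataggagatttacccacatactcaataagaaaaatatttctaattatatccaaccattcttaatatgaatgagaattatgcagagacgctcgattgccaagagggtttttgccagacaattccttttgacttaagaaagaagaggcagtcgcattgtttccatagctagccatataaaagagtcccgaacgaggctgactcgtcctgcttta
The Myh4 window held 3 E-boxes and 1 MEF2 match, 182 bases before the start. The Myh1 window held 1 MEF2 match, 211 bases before the start, and no E-box. Neither motif was found in the Myhas and Myh2 windows. Over 32851 promoter windows of the same table, 72.3% held an E-box and 3.19% a MEF2 match, so these are descriptions of letters and not of bound sites.

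The IIb nuclei of the knockout held more UMIs and genes per nucleus than those of the WT. The median was 906 UMIs per IIb nucleus in WT (quartiles 636 to 1341) and 1928.5 in the knockout (1302.5 to 2993), with 501 and 927.5 genes. In all, 3400226 WT and 5992884 knockout UMIs came from IIb nuclei. Ribosomal Rn18s took 7.38% of the WT and 2.86% of the knockout IIb UMIs, and 17.7% against 2.89% of IIb nuclei had a UMI of the repeat-derived models Gm10800 or Gm10801. The libraries shared 24 barcodes, 4 of them IIb in both. WT IIb nuclei with a sex-linked mark carried Y-linked RNA in 950 cases and Xist alone in 2. In the knockout, 1357 IIb nuclei were Y-marked, 214 Xist-marked and 32 carried both, so the knockout library held nuclei of both kinds. Results are therefore also given for Y-marked nuclei (a Y-linked UMI, no Xist) of both libraries and for Xist-marked knockout nuclei against Y-marked WT nuclei. The part of depth, Rn18s and the mixed marks in the differences between genotypes was not tested beyond these values.

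Cavin1, the targeted gene, had 20 UMIs in WT IIb nuclei and 0 in knockout IIb nuclei. CPM, the unit of level used throughout, divides a gene's UMIs by the class total and scales that total to 1000000. WT IIb nuclei had 5.88 CPM of Cavin1 (interval 3.59 to 9.08) and the 0 in the knockout allowed up to 0.616 CPM. Against a floor of 3 UMIs in the knockout library, Cavin1 was 11.8-fold lower. The interval of the knockout over WT ratio reached up to 0.115. The labels of both libraries thus matched the targeted gene in these nuclei.

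Myh4 was the leading myosin of the chosen nuclei by construction, and the rule left few mixed nuclei. IIb nuclei held a median of 4 Myh4 UMIs in WT and 6 in the knockout, with up to 51 and 107 in 1 nucleus. The Myh4 share of the myosin sum was 100% in 2769 WT IIb nuclei (93.0%) and 2432 knockout ones (96.3%). Myh4 stood at 4961 CPM in WT IIb nuclei and 3167 CPM in knockout ones, beside 184 and 42.0 CPM in IIx plus IIa nuclei. Nuclei with at least 3 UMIs over the 9 non-muscle genes, which should lack the gene, still showed 930 CPM in WT (176 nuclei, median 815 UMIs) and 479 CPM in the knockout (1050 nuclei, median 1558.5 UMIs). The muscle genes below are read beside these nuclei. They are no pure measure of free RNA, since 1 of them in the knockout held 121 Myh4 UMIs, above any IIb nucleus, and how much of their muscle RNA was free or came from doublets was not tested.

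Many WT nuclei lay close to the limits of the rule. Just inside, 916 WT and 405 knockout IIb nuclei had a myosin sum of exactly 3. Just outside, 1182 WT and 370 knockout barcodes had a sum of 2 and otherwise passed on their Myh4 share. Between 80% and under 90% Myh4 lay 168 WT and 51 knockout IIb nuclei, and 134 and 23 barcodes had 70% to under 80%. The Nr4a limit alone removed 101 barcodes in WT and 813 in the knockout, and the 9 non-muscle genes alone removed 313 and 247. The Nr4a limit therefore took a much greater part of the knockout library.

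Marker genes of other cell types were low in the IIb nuclei except where a muscle gene stood on the list. The 10 macrophage markers summed to 31.2 CPM in WT and 10.5 CPM in knockout IIb nuclei, against 583 and 168 CPM in the non-muscle nuclei, with Cd68 at 0 UMIs in both libraries. The 10 endothelial markers summed to 55.6 and 17.2 CPM, with Vwf at 0 UMIs in the knockout. The 10 T, NK and B cell markers summed to 124 and 38.2 CPM. The 10 fibro-adipogenic markers summed to 222 and 166 CPM, of which Smoc2 gave 166 and 135 CPM. The 10 mural markers summed to 342 and 417 CPM, mostly from Abcc9, a potassium channel subunit that muscle fibres also transcribe, with Kcnj8 at 0 UMIs in both libraries. The 10 markers of neuromuscular junction nuclei summed to 218 and 316 CPM, with Chrnd at 0 UMIs in both libraries. The 14 Schwann cell and neuron markers summed to 7120 and 9412 CPM, nearly all from Rbfox1, a splicing factor of muscle and neurons.

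IIb nuclei made up a larger share of the myosin-defined nuclei in the knockout library. They were 66.8% of 4458 nuclei in WT (65.4 to 68.1%) and 83.4% of 3029 nuclei in the knockout (82.0 to 84.7%), a difference of 16.6 percentage points. Within the knockout the share differed by sex-linked mark. Among Y-marked nuclei, IIb took 64.6% in WT (62.1 to 67.0%, 950 of 1471) and 87.9% in the knockout (86.2 to 89.5%, 1357 of 1544). Among Xist-marked knockout nuclei it took 65.8% (60.4 to 71.0%, 214 of 325), within counting error of the WT. When nuclei were first thinned to 500 UMIs, the shares were 65.9% for WT (63.8 to 67.8%) and 76.3% for the knockout (73.6 to 78.8%). Thinning left out the shallower barcodes, 2055 of 10274 WT ones but 0 of 7766 knockout ones. The knockout excess was thus present after thinning and in the Y-marked nuclei, and not seen in the Xist-marked ones. IIb/IIx hybrid nuclei, which held Myh4 and Myh1, numbered 372 in WT and 70 in the knockout. Genotype, mouse and library cannot be told apart here.

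**Figure D1:**
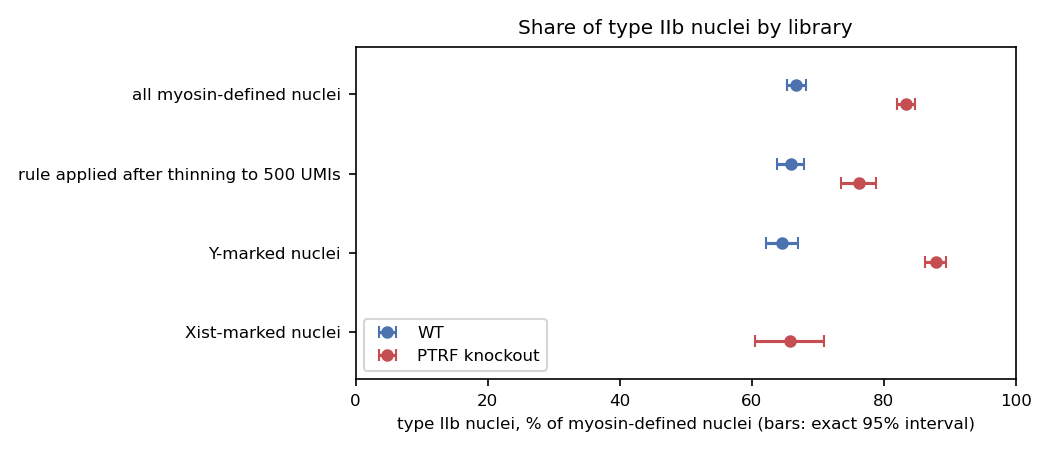
Share of type IIb nuclei (x axis, percent of myosin-defined nuclei) in each library, over all nuclei, after thinning to 500 UMIs, and over Y-marked or Xist-marked nuclei; bars are exact 95% intervals for counting error. The knockout stands above WT in the first 3 rows, and its Xist-marked nuclei at 65.8% stand beside the WT values.

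IIb nuclei were next set against the 680 WT and 279 knockout IIx plus IIa nuclei of the same library. The nuclei were separated by myosin genes, which were left out, and each library gave 1 value per gene. Of 6073 genes with at least 50 UMIs in each library, 539 (8.88%) were at least 1.5-fold higher in IIb nuclei in both libraries and 680 (11.2%) at least 1.5-fold lower. The median log2 ratio over all of these genes was -0.06 in each library. Ratios are log2 of CPM with 0.5 UMI added to each sum.

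The 10 genes highest in IIb nuclei included fast Z-disc, glycolytic and adhesion genes. Pfkfb3 makes and breaks the sugar phosphate that switches on phosphofructokinase, the main control of glycolysis. Pfkfb3 stood at 1133 CPM in WT IIb nuclei, 394 CPM in IIb/IIx hybrid, 82.6 CPM in IIx and 74.5 CPM in IIa nuclei. In the knockout its levels were 1664, 976, 185 and 66.2 CPM in the same order. The log2 ratio of IIb over IIx plus IIa was 3.82 in WT and 3.54 in the knockout, and the levels stepped down from IIb through hybrid to IIx in both libraries. Shares of nuclei with a UMI are given after thinning to 500 UMIs, which left out 271 of 2976 WT IIb nuclei as too shallow and 0 of 2526 knockout ones. So measured, 36.4% of WT and 51.9% of knockout IIb nuclei had a Pfkfb3 UMI, against 3.76% and 6.45% of IIx plus IIa nuclei. The non-muscle nuclei had one in 13.6% and 28.5%.

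Actn3, the alpha-actinin of fast Z-discs, was measured at 550.0 CPM in WT IIb nuclei, then 251 CPM in hybrid, 54.5 CPM in IIx and 37.3 CPM in IIa nuclei. Knockout levels were 443, 291, 37.0 and 30.5 CPM. Its counterpart Actn2, the alpha-actinin of slow and oxidative fibres, ran the other way. Actn2 stood at 282 CPM in WT IIb nuclei and at 1371, 3013 and 4438 CPM in hybrid, IIx and IIa nuclei. In the knockout Actn2 levels were 153, 1289, 2926 and 3294 CPM. The log2 ratios of IIb over IIx plus IIa were 3.49 and 3.64 for Actn3 and -3.64 and -4.32 for Actn2, WT first. The actinin pair therefore split the classes in opposite directions in each library.

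Cadm1, an immunoglobulin-type cell adhesion protein, had 622 CPM in WT IIb nuclei and 45.4 CPM in IIx plus IIa nuclei. In the knockout Cadm1 stood at 1348 and 73.0 CPM, and its log2 ratios were 3.76 and 4.19. Sorbs2, an adaptor that links actin to the Z-disc, had 1009 against 107 CPM in WT and 1426 against 148 CPM in the knockout. Adamtsl1, a secreted relative of matrix proteases without protease activity, had 745 against 93.9 CPM and 890.2 against 87.6 CPM. These 3 genes were at least 7.90-fold higher in IIb nuclei in each library.

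Myhas, the antisense RNA shown above, was highest in IIb nuclei like its neighbour Myh4. Myhas stood at 365 CPM in WT IIb nuclei, 217 CPM in hybrid, 42.1 CPM in IIx and 28.7 CPM in IIa nuclei. Knockout levels were 289, 160.2, 19.9 and 15.3 CPM. Its log2 ratio of IIb over IIx plus IIa was 3.27 in WT and 3.92 in the knockout. Myhas overlaps Myh1 on the other strand and no source used here states whether counting used strand, so its reads and those of Myh1 cannot be told apart where they overlap. Myh1 itself was near absent from the IIb nuclei by the choosing rule, at 40.9 CPM (WT) and 12.2 CPM (knockout).

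The other 4 genes of the 10 had lower levels. Ighm, the constant gene of the immunoglobulin mu heavy chain, had 139.7 CPM in WT IIb nuclei against 9.09 CPM in IIx plus IIa nuclei, and 124 against 7.30 CPM in the knockout. Smoc2, a secreted calcium-binding matrix protein, had 166 against 15.1 CPM and 135 against 3.65 CPM, but the non-muscle nuclei held 125 and 162 CPM. Pld5, a phospholipase D relative thought to lack activity, had 134 against 13.1 CPM and 95.4 against 3.65 CPM. The knockout IIx plus IIa levels of Smoc2 and Pld5 rest on 2 UMIs each, under the floor of 3 UMIs. BC023105, annotated as a processed pseudogene whose reads may be shared with a parent gene, had 67.3 against 3.03 CPM in WT. In the knockout BC023105 had 604 UMIs in IIb nuclei and 0 in IIx plus IIa nuclei, 18.4-fold more against the floor of 3 UMIs. The lower end of its log2 interval was 3.90. With thinning to 500 UMIs, the share of IIb nuclei with a UMI lay above that of the non-muscle nuclei for 5 of these 10 genes in WT and 9 of 10 in the knockout, Smoc2 being the exception there. The WT shares of BC023105, Ighm, Smoc2, Adamtsl1 and Pld5 overlapped those of the non-muscle nuclei. The 10 genes were chosen for high IIb values, and no share over all genes was computed to stand beside these counts.

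The 10 genes lowest in IIb nuclei included Z-disc and M-band genes, a fatty acid carrier and a sodium pump subunit. Cd36, the fatty acid carrier of the cell surface, stood at 122 CPM in WT IIb nuclei and at 691, 1600.1 and 1287 CPM in hybrid, IIx and IIa nuclei. Knockout levels of Cd36 were 108, 750.2, 1284 and 1583 CPM. Myoz2, a Z-disc protein of slow and oxidative fibres, had 5.29 CPM in WT IIb nuclei against 35.8 CPM in IIx and 539 CPM in IIa nuclei. In the knockout Myoz2 had 1.33 CPM in IIb, 122 CPM in IIx and 448 CPM in IIa nuclei. Cd36 was thus high in both other classes, whereas Myoz2 was highest in IIa nuclei.

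Ankrd2, a stretch-responsive ankyrin repeat protein, had 10.0 against 338 CPM in WT and 1.502 against 93.1 CPM in the knockout, IIb first and IIx plus IIa second. Fhl1, a LIM-domain protein of the sarcomere, had 30.0 against 547 CPM and 20.2 against 586 CPM. Myom3, a myomesin of the M-band, had 8.23 against 174 CPM and 3.17 against 203 CPM. The smallest of these 6 ratios was 18.2-fold, for Fhl1 in WT. Ldhb, the lactate dehydrogenase subunit of oxidative tissue, had 2.35 against 60.6 CPM and 0.834 against 87.6 CPM. Atp1b1, a beta subunit of the sodium pump, had 37.1 against 494 CPM and 16.9 against 403 CPM. Myh10, a non-muscle myosin heavy chain, had 17.1 against 231 CPM and 3.67 against 96.7 CPM, and Ccdc85a had 45.3 against 545 CPM and 17.9 against 361 CPM.

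**Figure D2:**
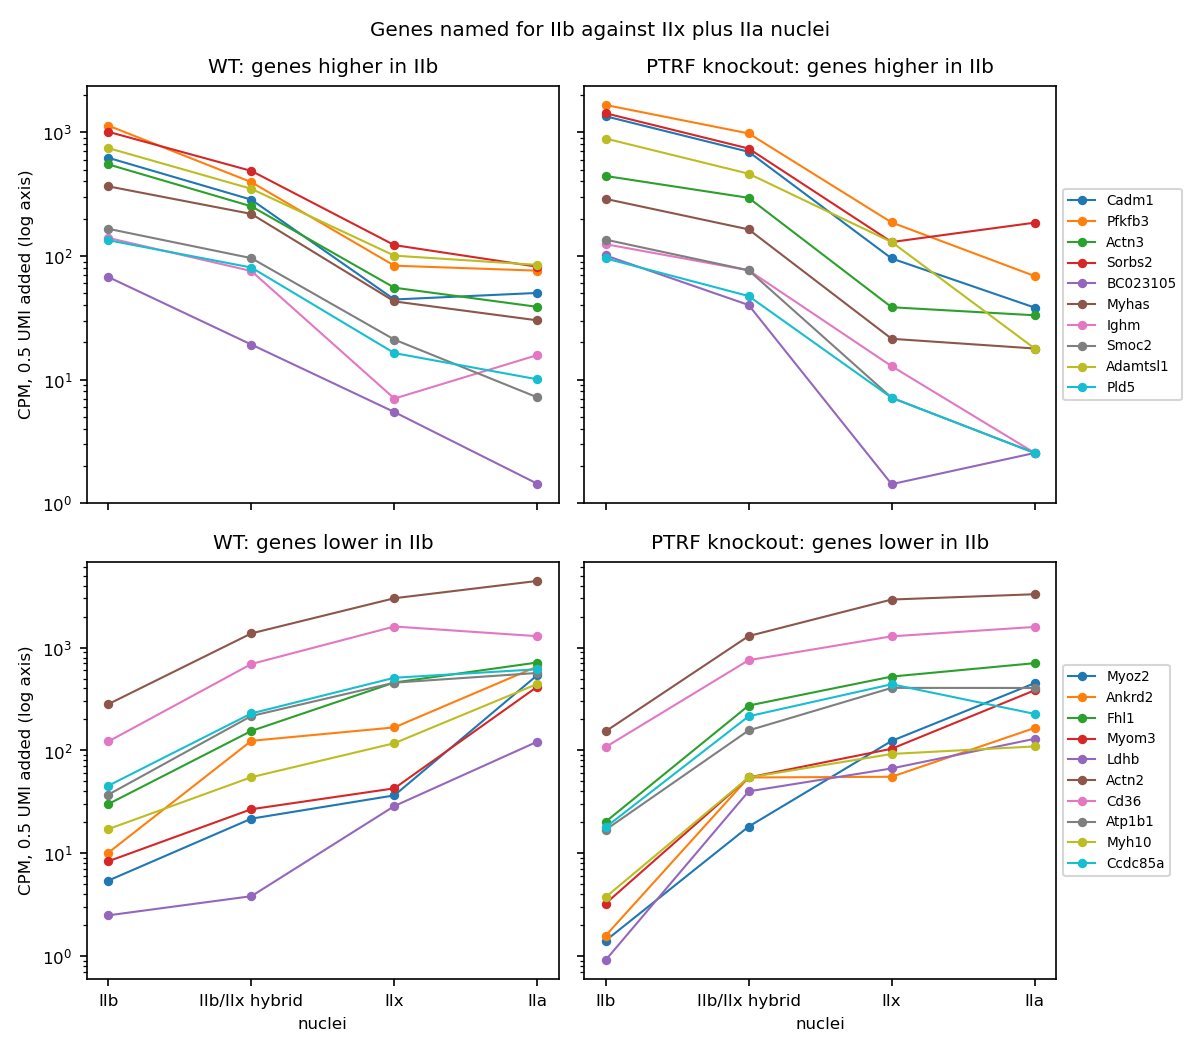
Level of the 10 genes highest and the 10 lowest in IIb nuclei (y axis, CPM with 0.5 UMI added, log axis; x axis, nuclei by myosin class) in WT (left) and knockout (right). Each line is 1 gene, and a class with 0 UMIs sits at its 0.5 UMI level; in WT, Pfkfb3 steps from 1133 CPM in IIb to 394 CPM in hybrid and 82.6 CPM in IIx nuclei.

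The gene lists describe the wider programme, and their counts stand beside 8.88% of all genes higher and 11.2% lower in both libraries. Some members, such as Actn3, Pfkfb3, Cd36, Myoz2, Myom3, Ankrd2 and Actn2, were named above for their high or low values. Counts of lists that hold them are not independent of that choice. Of 13 fast filament genes, 13 were measured and 7 were at least 1.5-fold higher in IIb nuclei in both libraries, none lower, with a median log2 ratio of 0.75 in WT and 1.07 in the knockout. Mylk4, a myosin light chain kinase, had 6069.6 against 1465 CPM in WT and 9600.2 against 2019 CPM in the knockout. Mybpc2, the fast myosin-binding protein C, had 1141 against 206 CPM and 938 against 117 CPM. Of 6 measured slow sarcomere genes, 5 were lower and none higher, with medians of -4.01 and -5.10. Mybpc1, the slow form of myosin-binding protein C, had 402 against 3851 CPM in WT and 214 against 3660.2 CPM in the knockout. The fast and slow forms of this protein thus parted the classes in both libraries.

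Among 20 measured calcium handling genes, 7 were higher in IIb nuclei and 1 lower, with medians of 0.58 and 0.59. Pvalb, the parvalbumin that soaks up calcium in fast fibres, had 560.0 CPM in WT IIb nuclei against 55.5 CPM and 385 against 63.9 CPM in the knockout. Casq1, the calcium store protein calsequestrin, had 339.7 against 122 CPM and 322 against 128 CPM. Atp2a1, the fast calcium pump, had 2740.4 against 1443 CPM and 2114 against 1209 CPM. The gene on the lower side was Stim1, the store calcium sensor, at 642 against 1097 CPM and 730.4 against 1376 CPM.

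Glycogen and glycolysis genes divided. Of 24 measured, 11 were higher and 5 lower, with medians of 0.70 and 0.85. The higher ones held Pygm, the phosphorylase of glycogen breakdown (1453 against 604 CPM in WT, 1044 against 434 CPM in the knockout), and Pgm1 (653 against 186 CPM and 1082 against 268 CPM). The lower ones held genes of glycogen building, such as the synthase Gys1 (256 against 735 CPM and 210.4 against 557 CPM) and the branching enzyme Gbe1 (329 against 1202 CPM and 257 against 1223 CPM). Hk2, which traps glucose taken up from blood, was lower too, at 158 against 244 CPM and 109 against 246 CPM. The phosphorylase and the named synthesis genes of glycogen thus lay on opposite sides of the comparison.

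Genes of oxidation lay on the low side. Of 23 measured genes of oxidative and lipid metabolism, 16 were lower and none higher, with medians of -1.71 and -1.48. Esrrg, a nuclear receptor that drives oxidative genes, had 446 against 3095 CPM in WT and 133 against 3030.4 CPM in the knockout. Ppara, the fatty acid sensing receptor, had 68.2 against 699 CPM and 23.7 against 581 CPM. Ppargc1a, the coactivator of mitochondrial genes, had 181 against 589.5 CPM and 186 against 579 CPM. Of 18 genes of the respiratory chain and citric acid cycle, 14 were lower and none higher, with medians of -1.02 and -0.97. Ogdh, a citric acid cycle dehydrogenase subunit, had 316 against 784 CPM and 317 against 639 CPM.

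Of 24 measured regulators of fibre type, 5 were higher and 2 lower in IIb nuclei, beside 8.88% and 11.2% of all genes, so the lower side was no fuller than over all genes. Eya4, a transcriptional coactivator, had 907 against 275 CPM in WT and 2039 against 588 CPM in the knockout. Maf, a large Maf factor, had 747 against 228 CPM and 1380.0 against 323 CPM, and Sox6, a repressor of slow genes, had 4797 against 2609 CPM and 5274 against 3085 CPM. Eya1 and Rxrg were the other 2 on the higher side. Of 13 measured genes of excitability, 7 were lower, Atp1b1 described above among them, and 1 was higher. Mstn, the growth inhibitor myostatin, was higher at 17.9 against 1.01 CPM and 21.02 against 1.83 CPM, and was the 1 gene called among 14 genes of atrophy and denervation. Its IIx plus IIa levels rest on 1 UMI in each library, under the floor of 3 UMIs, so the size of the ratio is not read.

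**Figure D3:**
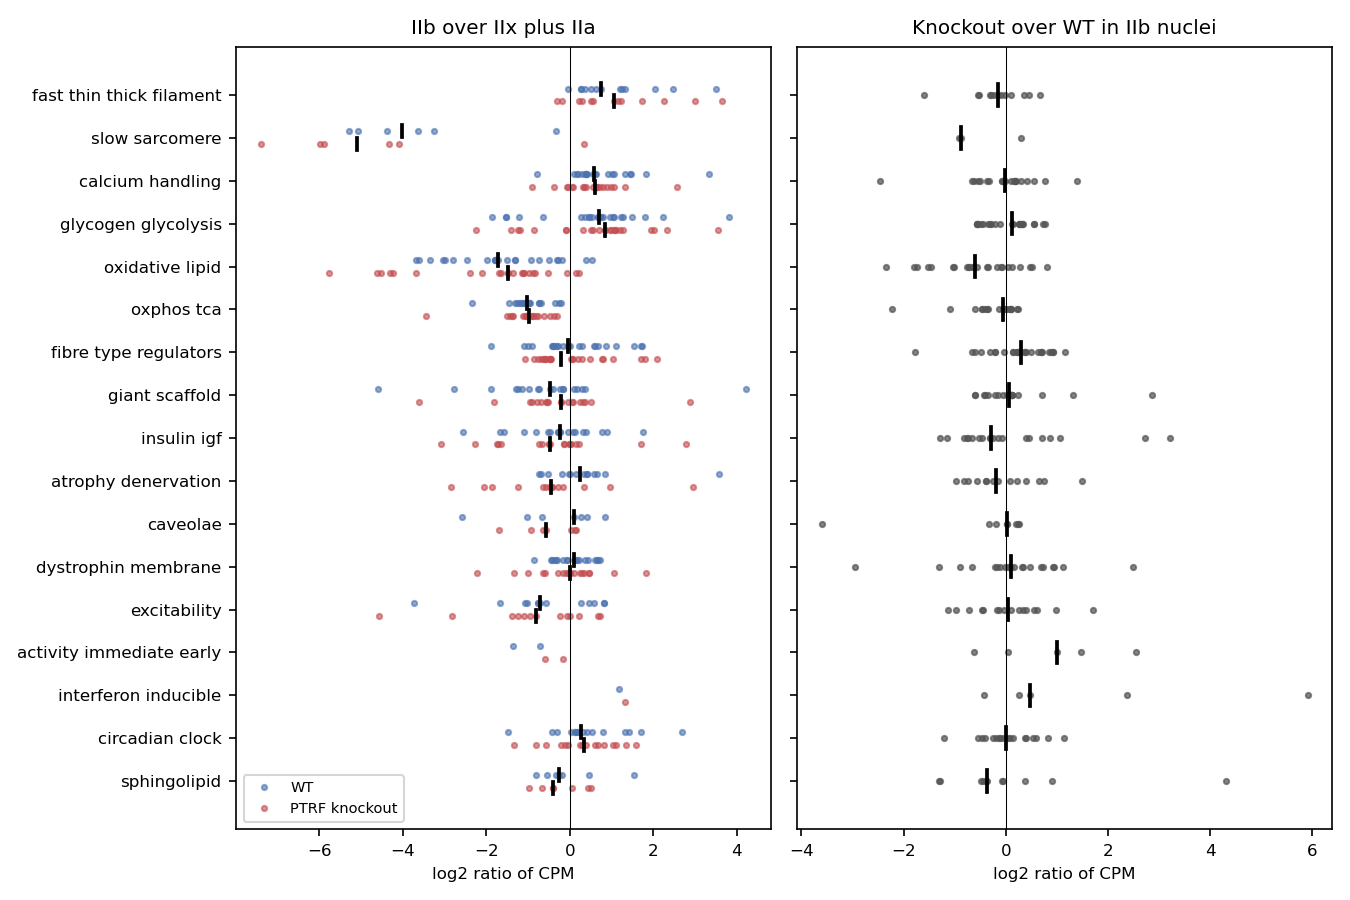
Log2 ratio of CPM, with 0.5 UMI added (x axis), of each measured member of the 17 gene lists (rows), for IIb over IIx plus IIa nuclei in each library (left) and for knockout over WT IIb nuclei (right). Each point is 1 gene and a black bar is the list median where at least 3 members were measured; slow sarcomere genes sit lowest on the left, with medians of -4.01 and -5.10.

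Knockout and WT IIb nuclei were compared next. Of 8577 genes with at least 50 UMIs over both libraries, 384 (4.48%) were at least 2-fold higher in knockout IIb nuclei and 761 (8.87%) at least 2-fold lower. The median log2 ratio over all of these genes was 0.06. The balance of higher and lower genes turned round in other sets of nuclei, with 295 higher and 261 lower after thinning, 335 and 299 in Y-marked nuclei, and 255 and 209 in nuclei of 1000 to 2000 UMIs. For Xist-marked knockout against Y-marked WT nuclei it was 153 higher and 201 lower. Sets with fewer UMIs leave fewer genes to measure, and of the 761 lower genes 269 could be measured in Y-marked nuclei. There 269 stayed lower and 236 stayed past 2-fold, in nuclei that are part of the same IIb nuclei. The counts rest on unlike sets of genes, so no excess of lower genes is read from the first count. The genes named below are the 12 whose interval lay farthest from no difference on each side.

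Of the 12 genes highest in the knockout, the one with the most UMIs was Irs1 (chr1:82233101-82291416, minus strand), the adaptor that carries the insulin and IGF1 signal from the receptor. Irs1 had 702 UMIs in WT and 8158 in knockout IIb nuclei, 206 and 1361 CPM, a log2 ratio of 2.72 (2.61 to 2.83). In IIx plus IIa nuclei Irs1 stood at 214 CPM (WT) and 419.9 CPM (knockout). Irs1 was therefore higher in the knockout in both classes and farther apart in IIb nuclei. At 500 UMIs per nucleus, 8.17% of WT IIb nuclei (7.17 to 9.27%) and 43.1% of knockout ones (41.1 to 45.0%) had an Irs1 UMI, and 16.4% and 77.2% without thinning. The non-muscle nuclei of the knockout had one in 40.5% (37.5 to 43.5%), a share that overlapped that of IIb nuclei, while IIx plus IIa nuclei had one in 16.5% (12.3 to 21.4%). Within knockout IIb nuclei Irs1 stood at 1403 CPM in Y-marked and 638 CPM in Xist-marked nuclei, both above the 249.9 CPM of Y-marked WT nuclei.

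Igf1, the growth factor that signals through that adaptor, had 38 UMIs in WT and 632 in knockout IIb nuclei, 11.2 and 105 CPM, and a log2 ratio of 3.22 (2.77 to 3.75). IIx plus IIa nuclei had 5.05 and 9.13 CPM of Igf1. The non-muscle nuclei, whose fibroblasts and macrophages are known sources of Igf1, had 106 CPM (WT) and 275 CPM (knockout). After thinning, 4.67% of knockout IIb nuclei had an Igf1 UMI, below the 12.7% of non-muscle nuclei and above the 0.358% of IIx plus IIa nuclei. Whether this Igf1 RNA came from IIb nuclei or from other cells was not tested. Among Xist-marked knockout IIb nuclei Igf1 stood at 22.9 CPM, against 114 CPM in Y-marked ones.

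Sorcs1 (chr19:50143299-50678646, minus strand), a sorting receptor of the VPS10 family, had 376 and 4274 UMIs, 111 CPM in WT and 713 CPM in knockout IIb nuclei. Its log2 ratio was 2.69 (2.54 to 2.85). Y-marked IIb nuclei had 101 CPM (WT) and 796 CPM (knockout), whereas Xist-marked knockout IIb nuclei had 137 CPM. The Xist-marked nuclei thus stood near the WT level, at a log2 ratio of 0.45 to Y-marked WT. IIx plus IIa nuclei had 12.1 CPM of Sorcs1 in WT and 9.13 CPM in the knockout, from 12 and 5 UMIs. At 500 UMIs per nucleus, 17.6% of knockout IIb nuclei had a Sorcs1 UMI, against 4.36% in WT IIb nuclei, 1.71% of knockout non-muscle nuclei and 0.717% of knockout IIx plus IIa nuclei. The knockout IIb share of Sorcs1 stood above those of both other sets.

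Pcdh7 (chr5:57717967-58133230, plus strand), a protocadherin of the cell surface, had 107 CPM in WT and 669.8 CPM in knockout IIb nuclei, a log2 ratio of 2.64. IIx plus IIa nuclei had 18.2 and 223 CPM of Pcdh7, a log2 ratio of 3.58, so the other fast nuclei showed the difference as well. Pde10a, a phosphodiesterase of cyclic AMP and cyclic GMP, had 48.5 and 349.7 CPM in IIb nuclei, and 53.5 and 277 CPM in IIx plus IIa nuclei. Cpeb2, a regulator of translation through mRNA tails, had 34.7 and 234 CPM in IIb nuclei, and 20.2 and 58.4 CPM in IIx plus IIa nuclei. These 3 genes were higher in the knockout under both sex-linked marks, at 457, 259 and 147 CPM in Xist-marked knockout IIb nuclei. Pcdh7 overlaps annotated models on the same strand, and its thinned share in knockout IIb nuclei (21.4%) overlapped that of knockout non-muscle nuclei (19.0%).

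Igfn1, an immunoglobulin and fibronectin domain protein of the Z-disc, had 28.2 CPM in WT and 207 CPM in knockout IIb nuclei. It was higher in Xist-marked (432 CPM) than in Y-marked (184 CPM) knockout IIb nuclei, and Y-marked WT nuclei had 13.7 CPM. Igfn1 was also at least 1.5-fold higher in IIb than in IIx plus IIa nuclei in both libraries. IIx plus IIa nuclei had 1.01 CPM of Igfn1 in WT, from 1 UMI, and 27.4 CPM in the knockout. Arhgap18, a GTPase-activating protein, had 18.2 and 138 CPM in IIb nuclei. The non-muscle nuclei held 159 CPM of Arhgap18 in WT and 119 CPM in the knockout. Its thinned share in knockout IIb nuclei (6.49%) overlapped that of knockout non-muscle nuclei (5.71%). In IIx plus IIa nuclei Arhgap18 had 12 UMIs in WT and 2 in the knockout, a log2 ratio of -1.47 (-4.93 to 0.44). The interval of the smaller class crossed 0, so no direction is read for it. Mettl21c, a lysine methyltransferase of muscle, had 5.29 and 45.9 CPM in IIb nuclei and 12.7 CPM in the Xist-marked knockout ones.

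Sgms2, a sphingomyelin synthase of the plasma membrane, had 23 UMIs in WT and 819 in knockout IIb nuclei, 6.76 and 137 CPM, 19.8-fold by log2 ratio 4.31 (3.74 to 5.00). Sgms2 was high under both marks, at 139 CPM in Y-marked and 119 CPM in Xist-marked knockout nuclei. The difference was not limited to IIb nuclei, with 3.03 CPM (3 UMIs) in WT and 34.7 CPM in knockout IIx plus IIa nuclei. The non-muscle nuclei had 33.7 and 90.3 CPM of Sgms2. Its thinned share in knockout IIb nuclei (5.74%) overlapped that of knockout non-muscle nuclei (4.00%). Of 11 measured sphingolipid genes, 1 was at least 2-fold higher and 2 lower, beside 4.48% and 8.87% of all genes. The higher one was Sgms2, named here for its high value. The lower ones were the ceramide synthases Cers5 and Cers6, at 9.12 against 3.67 CPM and 12.4 against 5.01 CPM, WT first. Lrrc3b, a leucine-rich repeat membrane protein, had 4.41 and 76.3 CPM, with 84.7 CPM in Y-marked and 12.7 CPM in Xist-marked knockout nuclei. In thinned knockout IIb nuclei 2.89% had an Lrrc3b UMI, against 0.286% of non-muscle nuclei.

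Iigp1, an interferon-inducible GTPase that attacks the vacuoles of parasites, had 3 UMIs in WT and 371 in knockout IIb nuclei, 0.882 and 61.9 CPM. The ratio was 60.2-fold, with an interval of 23.8 to 342. Few nuclei carried it: 3.92% of knockout IIb nuclei had an Iigp1 UMI, and 1 of them held 62 UMIs. Of the Xist-marked nuclei 0 of 214 had a UMI (exact upper bound 1.71%), and IIx plus IIa nuclei had 0 UMIs in both libraries. After thinning, 1.58% of knockout IIb nuclei had a UMI against 1.62% of non-muscle nuclei, so the share was no higher than in non-muscle nuclei. The level in knockout non-muscle nuclei was lower, at 22.5 CPM, with at most 5 UMIs in 1 nucleus. Whether IIb nuclei transcribed Iigp1 was not tested, and its RNA is not read as expression by them. Of 5 measured interferon-inducible genes, 2 were at least 2-fold higher and none lower, beside 4.48% and 8.87% of all genes. They were Iigp1, named here for its high value, and Irgm2, a GTPase of the same family (2.94 and 16.0 CPM). In all, 12 of the list's 17 genes had too few UMIs to enter.

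Over these 12 genes, the thinned share in knockout IIb nuclei stood above that of knockout non-muscle nuclei for 6 (Lrrc3b, Pde10a, Igfn1, Sorcs1, Cpeb2 and Mettl21c), overlapped it for 5 and lay below it for Igf1. It stood above that of knockout IIx plus IIa nuclei for 10, and overlapped it for Iigp1 and Pde10a. The 12 genes were chosen for high values in knockout IIb nuclei, so these counts are not independent of that choice. Such shares were computed for named genes only, and no share over all genes stands beside the counts. The non-muscle nuclei hold cell types that may transcribe these genes themselves, so their share can exceed what free RNA alone would give. Whether RNA from other nuclei raised the IIb values of the other 6 genes was not tested.

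**Figure D4:**
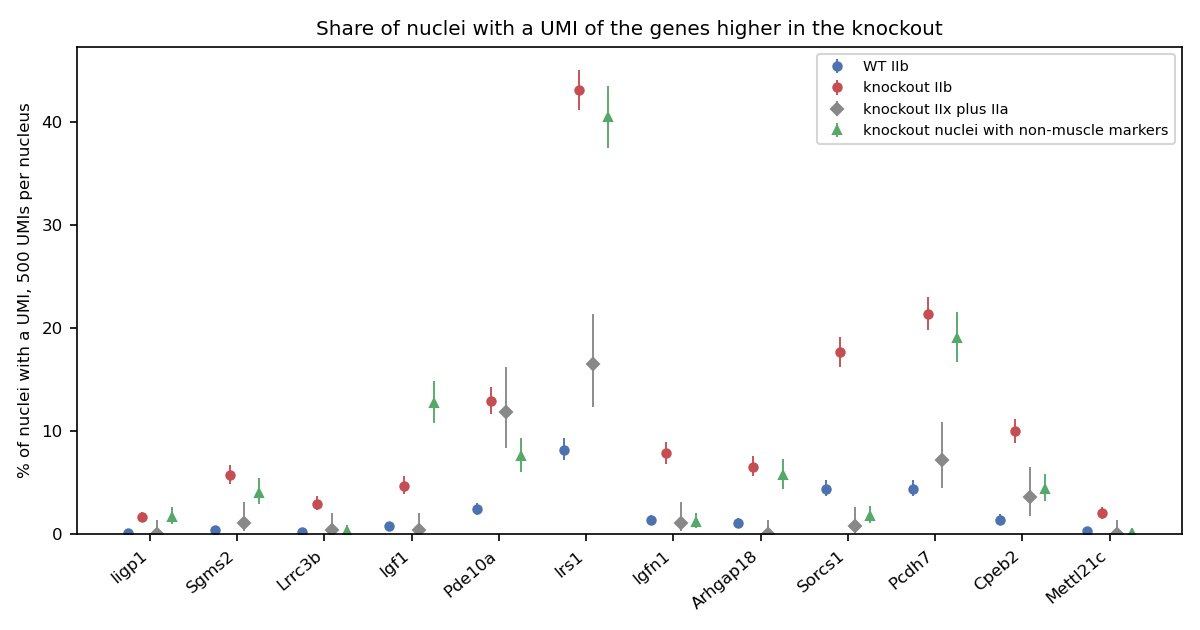
Share of nuclei with a UMI (y axis, percent, nuclei of at least 500 UMIs thinned to 500, which leaves out 271 of 2976 WT IIb nuclei) of the 12 genes highest in knockout IIb nuclei (x axis), for WT IIb, knockout IIb, knockout IIx plus IIa and knockout non-muscle nuclei; bars are exact 95% intervals. Sorcs1 at 17.6% in knockout IIb nuclei stands clear of the other 3 sets, whereas Irs1 at 43.1% overlaps the knockout non-muscle nuclei at 40.5%.

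Among the 12 genes lowest in knockout IIb nuclei were adhesion proteins, channel subunits and receptors. Lrp1b, a giant receptor of the LDL receptor family, had 408 UMIs in WT and 35 in knockout IIb nuclei, 119.99 and 5.84 CPM, a log2 ratio of -4.34 (-4.90 to -3.86). Cntn4 and Cntn5, adhesion proteins of the contactin family, had 55.3 and 59.7 CPM in WT and 2.503 and 2.84 CPM in knockout nuclei. Dpp10, a partner of potassium channels, had 56.2 and 3.00 CPM. All of these were also lower in knockout IIx plus IIa nuclei, with Lrp1b at 69.7 and 7.30 CPM and Dpp10 at 45.4 and 0 CPM. Against the floor of 3 UMIs Dpp10 was 8.29-fold lower there, and its log2 interval reached up to -2.69.

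A further 7 were low in the knockout as well. Pcsk2, a convertase of prohormones, had 61 WT UMIs (17.9 CPM) and 0 in the knockout, 35.8-fold lower against the floor of 3 UMIs. The end of its interval nearest to no difference was 28.3-fold. Galnt13, which adds sugars to proteins, had 40.0 and 0.834 CPM, and Chl1, a neural adhesion protein, had 52.9 and 1.502 CPM. Kcnmb2, a potassium channel subunit, had 53 UMIs and 1 UMI. Gabrb1, a GABA receptor subunit, had 32.4 and 1.17 CPM, and Lrrc7, a postsynaptic scaffold, 29.1 and 1.00 CPM. Ces1d, a carboxylesterase of liver and fat, had 63.5 and 2.34 CPM in IIb nuclei, but 43.4 CPM in WT and 170.0 CPM in knockout non-muscle nuclei. Ces1d was the member of this set that was higher in the knockout outside muscle.

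These levels in WT were shared with the other nuclei. The thinned share of WT IIb nuclei with a UMI overlapped that of WT non-muscle nuclei for 12 of 12 genes, and that of IIx plus IIa nuclei for 10 of 12, Chl1 and Ces1d being above. No share over all genes was computed to stand beside these counts. Lrp1b stood at 139.8 CPM in WT and 6.87 CPM in knockout non-muscle nuclei. At the level of the non-muscle nuclei, these values are not read as expression by IIb nuclei. The 12 genes had a median annotated length of 586 kb, and 8 were over 300 kb, beside 80.1 kb and 3 of the 12 genes highest in the knockout. The 2-fold lower genes had a median length of 229 kb (316 of 758 with a length over 300 kb), against 36.0 kb (542 of 8571) for all genes measured. Of the 12, 9 overlap another gene on the same strand. Of the 13 measured Schwann cell and neuron markers, which include Chl1, Cntn4, Dpp10 and Lrp1b named above, 11 were at least 2-fold lower and none higher, beside 8.87% lower over all genes, with a median log2 ratio of -3.69. Those named above were chosen for their low values, so this count is not independent of that choice. Depth, Rn18s and the share of nuclei with Gm10800 or Gm10801 moved with genotype as well, and their part in the difference was not tested.

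**Figure D5:**
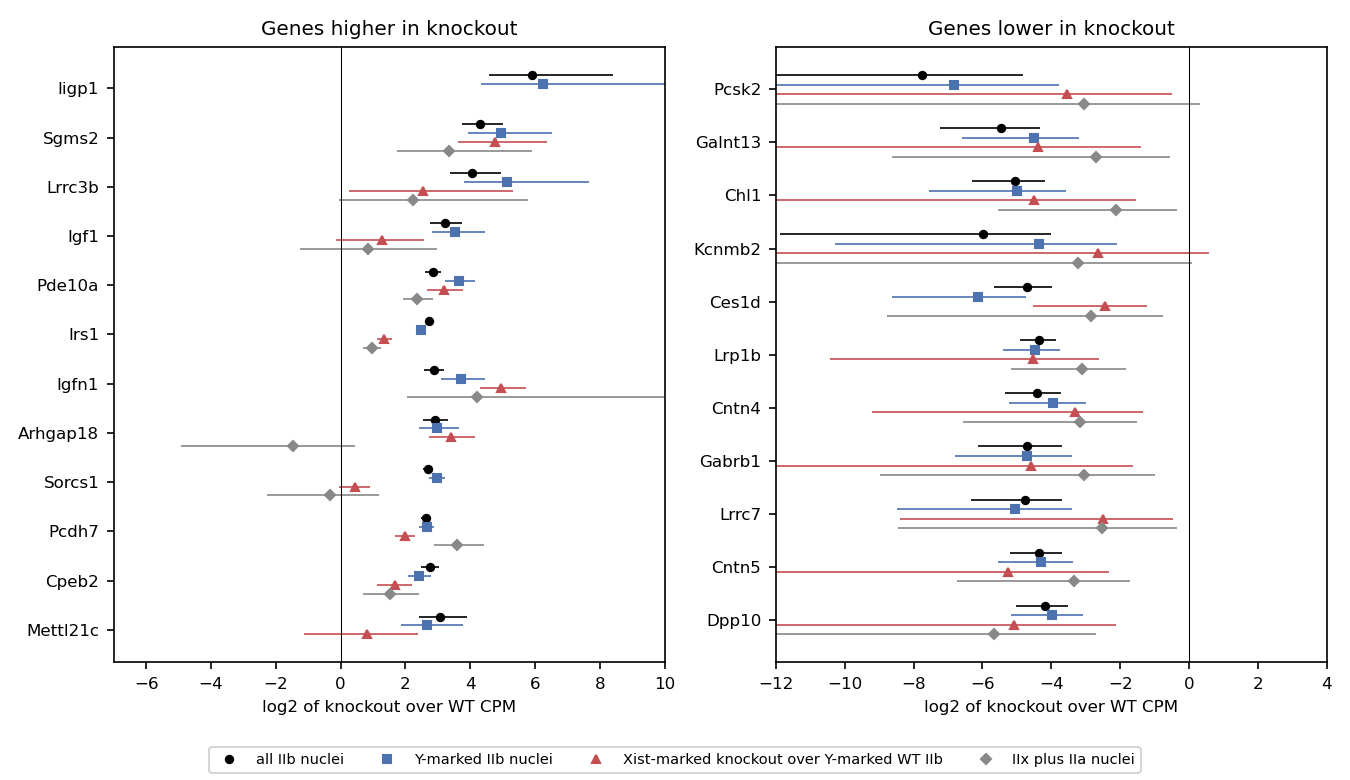
Log2 of knockout over WT CPM (x axis) of the 12 genes highest (left) and 11 of the 12 lowest (right) in knockout IIb nuclei, for all IIb nuclei, Y-marked nuclei, Xist-marked knockout over Y-marked WT nuclei, and IIx plus IIa nuclei. Points have 0.5 UMI added, lines are exact 95% intervals cut at the axis ends, and a set with at most 3 UMIs on both sides is not drawn; Sorcs1 stands at 2.69 over all IIb nuclei and at 0.45 for Xist-marked nuclei.

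Most fibre genes differed by less than 2-fold between the genotypes in IIb nuclei, and the counts of this and the next lists stand beside 4.48% of all genes higher and 8.87% lower. Of 13 fast filament genes none was 2-fold higher and 1 was lower, with a median log2 ratio of -0.16. That gene was Tnnt3, the fast troponin T, at 3657 CPM in WT IIb nuclei and 1209.9 CPM in knockout ones, and its log2 ratio was -1.57 over Y-marked nuclei and -1.31 for Xist-marked knockout nuclei. Tnnt3 in IIx plus IIa nuclei stood at 2588 and 851 CPM. Of 24 genes of glycogen and glycolysis none passed 2-fold in either direction, with a median of 0.13. Of 21 calcium handling genes 1 was higher and 1 lower. Hrc, a calcium-binding protein of the sarcoplasmic reticulum, had 268 and 48.4 CPM in IIb nuclei and 235 and 45.6 CPM in IIx plus IIa nuclei. Atp2a2, the calcium pump of slow fibres, had 7.06 and 18.9 CPM, but 2.54 CPM, from 1 UMI, in Xist-marked knockout IIb nuclei (log2 ratio of -1.04 to Y-marked WT). The non-muscle nuclei held 72.3 and 137 CPM of Atp2a2, so no difference is read for IIb nuclei.

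Several genes of oxidative and lipid metabolism were lower in the knockout. Of 24 measured, 7 were at least 2-fold lower and none higher, beside 8.87% lower over all genes, and the median log2 ratio was -0.61. Esrrg had 446 CPM in WT and 133 CPM in knockout IIb nuclei, but 3095 and 3030.4 CPM in IIx plus IIa nuclei. Ppara had 68.2 and 23.7 CPM in IIb nuclei, and 699 and 581 CPM in IIx plus IIa nuclei. For this pair of nuclear receptors, IIb nuclei differed between the libraries while IIx plus IIa nuclei lay within 1.5-fold of each other, a contrast that 1 library per genotype cannot test. The non-muscle nuclei held more of both than IIb nuclei, with Esrrg at 882 and 607 CPM and Ppara at 318 and 399.6 CPM. How much of the IIb values came from RNA of other nuclei was not tested. Pdk4, the kinase that holds back pyruvate oxidation, had 198 and 96.6 CPM in IIb nuclei and 329 and 85.8 CPM in IIx plus IIa nuclei. The others were Ppard (169 and 83.3 CPM), Esrrb (13.8 and 2.67 CPM), Fabp3 (10.0 and 2.84 CPM) and the myoglobin gene Mb (9.71 and 3.504 CPM). The list median was -0.67 over Y-marked nuclei and -0.06 for Xist-marked knockout over Y-marked WT nuclei. In that last comparison Pdk4 stood at -1.78, Esrrg at -1.69, Ppara at -0.70, Fabp3 at -0.65, Esrrb at -0.34 and Ppard at -0.18. Mb stood at 1.74, with 20.3 CPM in Xist-marked knockout nuclei. There 1 UMI is 2.54 CPM, and Fabp3 and Esrrb had 7.62 CPM each. The values of Fabp3, Esrrb and Mb thus rest on few UMIs, and no direction is read for them. Ppargc1a stood at 181 and 186 CPM.

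Among 19 genes of the respiratory chain and citric acid cycle, 2 were at least 2-fold lower and none higher, a share near the 8.87% over all genes, with a median of -0.06. They were Cox6a2, the muscle form of a cytochrome oxidase subunit (19.7 and 4.17 CPM), and Idh2, the mitochondrial isocitrate dehydrogenase (18.8 and 8.84 CPM). For Xist-marked knockout over Y-marked WT nuclei the log2 ratio was -1.34 for Cox6a2 and 0.05 for Idh2. Of 16 genes of excitability 1 was higher, the potassium channel Kcnn3 (5.88 and 19.5 CPM), and 1 lower, Atp1b1 (37.1 and 16.9 CPM). Of the 26 fibre type regulators measured, Eya4 was 2-fold higher (907 and 2039 CPM) and Tead4, a partner of Yap, was lower (21.8 and 6.34 CPM). For Eya4 the log2 ratio was 1.15 over Y-marked nuclei and 0.60 for Xist-marked knockout nuclei.

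In the insulin and IGF list, 3 of 20 measured genes were at least 2-fold higher and 2 lower, beside 4.48% and 8.87% of all genes, so the lower count was near the overall share. Irs1 and Igf1 were named above for their high values, so the higher count is not independent of that choice. Beside Irs1 and Igf1, Irs2, the other main substrate, had 25.9 and 54.2 CPM, but 22.9 CPM in Xist-marked knockout nuclei (log2 ratio of -0.33 to Y-marked WT). Foxo1, the transcription factor that Akt holds out of the nucleus, had 395 and 161 CPM, with log2 ratios of -1.10 over Y-marked and -1.57 for Xist-marked knockout nuclei. Grb10, an inhibitor of the insulin receptor, had 63.8 and 28.7 CPM, but 81.3 CPM in Xist-marked knockout nuclei (log2 ratio of 0.39). Insr, the receptor itself, had 268 and 255 CPM, and Slc2a4, the insulin-responsive glucose carrier, had 87.05 and 52.1 CPM. In IIx plus IIa nuclei Foxo1 stood at 476 and 175 CPM, so the difference was not limited to IIb nuclei.

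Of 21 genes of the dystrophin complex and membrane, 2 were higher and 2 lower, beside 4.48% and 8.87% of all genes, so the lower count was near the overall share. Lama2, the laminin chain of the muscle basement membrane, had 154 and 866 CPM in IIb nuclei, with a log2 ratio of 2.48 over Y-marked and 1.32 for Xist-marked knockout nuclei. Sgcd, delta-sarcoglycan, had 1154 and 2517 CPM. Sntb1, a beta-syntrophin, was among the lower ones and had 30.3 and 3.84 CPM. Dmd, dystrophin itself, had 12579 and 24077 CPM, just under 2-fold. Fibroblasts also make Lama2, and it was not measured how much of its RNA came from other nuclei.

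The remaining caveolar genes differed little in IIb nuclei. Of 8 measured genes of caveolae and their neck proteins, none was 2-fold higher and 1 was lower, with a median of 0.03. Cavin4, the muscle cavin, had 26.8 CPM in WT and 27.4 CPM in knockout IIb nuclei, and Cav3, the muscle caveolin, had 17.1 and 17.5 CPM. The lower gene was Ror1, a Wnt receptor counted on this list, with 37.4 and 3.00 CPM. Cavin2 and Cavin3 had too few UMIs to enter.

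Of 19 giant and scaffold genes, Igfn1 and Smpx, a small stretch-related protein, were at least 2-fold higher and none was lower, with a median of 0.06. Igfn1 was named above for its high value, so this count is not independent of that choice. Smpx had 202 and 507 CPM, with log2 ratios of 1.05 over Y-marked and 0.25 for Xist-marked knockout nuclei. Ttn, titin, had 76061 and 49979 CPM. Of 14 atrophy and denervation genes, Runx1 alone was 2-fold higher (13.8 and 39.2 CPM), while the ubiquitin ligases Trim63 (651 and 587 CPM) and Fbxo32 (1102 and 745 CPM) stayed within 2-fold. Of 5 measured immediate early genes, Klf6 (4.12 and 24.9 CPM) and Dusp1 (10.6 and 29.9 CPM) were higher, a list that the Nr4a limit of the choosing rule touches. Of 18 clock genes, Bhlhe41 (26.2 and 58.2 CPM) was higher and 1 was lower, with a median log2 ratio near 0.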

How the data were processed

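Single-nucleus RNA was measured in 1 WT and 1 PTRF knockout quadriceps library. The authors deposited whole-number UMI counts per gene and barcode, written by Cell Ranger 6.0.0 as stated per the file headers. Per the submitters' processing notes, the tools and builds were Cell Ranger, STAR, Seurat 4.1.1, mm10 and GRCm38. No source used here states whether counting used strand or introns. The deposited counts held 10280 and 7766 barcodes, of which 10274 and 7766 had at least 200 genes. Nothing was normalized before the sums below, no doublet caller was run and no nucleus was clustered.

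UMIs were summed per library and class, scaled to CPM, and compared as log2 ratios with 0.5 UMI added, in Python 3.11.15 with numpy 2.4.6, scipy 1.17.1 and pandas 2.3.3; figures used matplotlib 3.10.9. Intervals for ratios and shares are exact 95% intervals (Clopper-Pearson), and cover counting error only. With 1 library per genotype no test was made: a gene was called past 2-fold between genotypes, or past 1.5-fold in both libraries between classes, among genes with at least 50 UMIs. The ratio and its interval were tested on simulated counts. Genes named for the genotypes are the 12 highest and 12 lowest, and for the classes the 10 highest and 10 lowest, ranked by whichever end of the interval lay closer to a ratio of 1. Left out of that ranking were genes of the choosing rule, predicted models, mitochondrial, ribosomal protein, haemoglobin, Xist and Y-linked genes, Rn18s and Cavin1. The 17 gene lists and 12 marker lists (fibro-adipogenic, macrophage, adipocyte, endothelial, lymphatic, mural, satellite, neuromuscular junction, myotendinous junction, T/NK/B, Schwann/neuron and RNA quality) are given by counts and medians, and some members named beyond each list's extremes were picked after their values were seen. The members, the rule and the lists were chosen with earlier results of these data known. Features were matched by identifier to GENCODE M21 on GRCm38 (52093 of 53700). Alternatives changed the rule, the depth, the scaling, the minimum of UMIs and the nuclei by sex-linked mark. The marker lists not described with the results summed, in WT and knockout IIb nuclei, to 44.1 and 25.9 CPM (lymphatic), 137 and 139 CPM (satellite, with Chodl at 0 UMIs in the knockout), 341 and 503 CPM (myotendinous junction), and 2482 and 3544 CPM (adipocyte, mostly Ghr). Some genes that enter these counts are not reported here.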

Additional observations from a re-analysis of the deposited data

How the results depend on the processing

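Of 58 recomputed values of the main results, 40 stayed close to the reported value and 18 moved. Most are counts of genes, which have no sign. The knockout excess of IIb nuclei (16.6 percentage points) was 13.4 with neither the Nr4a nor the non-muscle filter, 10.4 with the rule applied after thinning to 500 UMIs, 23.3 over Y-marked nuclei, and 1.26, within counting error, for Xist-marked knockout against Y-marked WT nuclei. The number of genes at least 2-fold higher in knockout IIb nuclei (384) was 804 with a minimum of 10 UMIs, 153 for Xist-marked knockout nuclei, and 255 in nuclei of 1000 to 2000 UMIs. It was 295 after thinning and 335 over Y-marked nuclei. The number at least 2-fold lower (761) was 418 with a myosin sum of at least 5, 446 with at least 500 genes, 261 after thinning, 299 over Y-marked nuclei, 3534 with a minimum of 10 UMIs, 201 for Xist-marked knockout nuclei, and 209 in nuclei of 1000 to 2000 UMIs. The lower genes outnumbered the higher ones as reported, but not after thinning, over Y-marked nuclei or in nuclei of 1000 to 2000 UMIs. Settings with fewer UMIs leave fewer genes to measure. Genes higher (539) and lower (680) in IIb than in IIx plus IIa nuclei numbered 301 and 322 after thinning, and 994 and 1300 with a minimum of 10 UMIs. Of the 384 higher genes, 302 could be measured in Y-marked nuclei, where 302 kept their direction and 242 stayed past 2-fold. Of 131 measured with Xist-marked nuclei, 117 kept it and 57 stayed past. Of the 761 lower genes, 269 could be measured in Y-marked nuclei, where 269 kept their direction and 236 stayed past 2-fold. Of 155 measured with Xist-marked nuclei, 145 kept it and 91 stayed past. The marked nuclei are part of the IIb nuclei that gave these genes, so keeping direction is no independent check. Of 64 named-gene values, 61 stayed past their fold in every alternative run. The exceptions were Mettl21c (0.83) and Sorcs1 (0.45) on the log2 scale and Iigp1, which had too few UMIs for a ratio, each with Xist-marked knockout against Y-marked WT nuclei. These genes were named for intervals beyond the fold in the same UMIs, so their staying past it is no independent check. The count uses the ratio without its interval, and in that comparison the intervals of Igf1 (14 WT and 9 knockout UMIs) and Kcnmb2 (11 and 0) crossed 0. Comparisons with Xist-marked knockout nuclei, with nuclei of 1000 to 2000 UMIs, with IIx nuclei alone, and of the classes within Y-marked nuclei were chosen after seeing the data. No paired analysis was possible because each genotype had 1 library, so leaving out a replicate was not possible either. Depth limits the smaller classes most: 279 knockout IIx plus IIa nuclei stand behind each ratio of that class.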
